A study of Homo sapiens with 6 samples.

Results

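The genes of the unfolded protein response and the chaperones of the endoplasmic reticulum were examined in Huh7 cells that overexpressed the circular RNA hsa_circ_0098181. The set held 42 of the 50868 genes in the count table. It was chosen by symbol from knowledge of the pathway, with earlier results of these data known, and every listed symbol was found. Huh7 is a human hepatoma cell line. Of 6 libraries of total RNA, 3 came from cells transfected with the hsa_circ_0098181 overexpression plasmid and 3 from cells transfected with the control plasmid. All 6 were transfected with a Lipofectamine reagent and collected after 48 hours, so that the control cells also carried a plasmid and were exposed to the transfection reagent. Untransfected cells were not analysed here. The labels do not say that replicates came from separate cultures, and the p-values then measure only the spread between these libraries.

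The endoplasmic reticulum (ER) is the compartment in which secreted and membrane proteins are folded, and hepatocyte-like cells that secrete plasma proteins make heavy use of it. When unfolded proteins accumulate there, the membrane sensors IRE1 (gene ERN1), PERK (EIF2AK3) and ATF6 are released from the chaperone BiP (HSPA5). IRE1 splices the XBP1 mRNA, PERK phosphorylates eIF2 alpha and favours translation of ATF4, and ATF6 is cut by site-1 and site-2 proteases in the Golgi. The resulting factors raise transcription of chaperones, disulfide isomerases and the ER-associated degradation (ERAD) machinery, which returns misfolded proteins to the cytosol for destruction. ATF4 further drives DDIT3 (CHOP), TRIB3 and CHAC1. XBP1 splicing, eIF2 alpha phosphorylation and ATF6 cleavage are not visible in counts per gene and were not analysed here.

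The libraries held 11130902 to 14138262 counts. SOX5, the gene from which the circle derives, served as the check of the labels. Its level was 2104 ± 258 CPM (read counts divided by the TMM-scaled size of the library and set to a common total, which serves to compare libraries) with overexpression against 35.8 ± 5.41 in the controls (SD, n = 3 each). Its log2 fold change was 5.88 with an adjusted p of 2.6e-06 (edgeR quasi-likelihood test, Benjamini-Hochberg over 15055 genes, used throughout), and counts per gene do not separate circular, linear and plasmid RNA. The 12 hepatocyte markers summed to 32943 to 35648 CPM with overexpression and 32114 to 38089 CPM in controls. AFP (10801 to 13276 CPM) was the highest of them except in control library 1, where APOB had 12939 CPM and AFP 12371 CPM. None of the 12 passed the test, 7 were positive and 5 negative. RBP4, the retinol carrier, had 664, 620.3 and 653 CPM against 872, 883 and 837 CPM, which did not overlap (log2 fold change -0.42, unadjusted p 0.00057, adjusted p 0.506 by edgeR), and APOB (-0.39) and HNF4A (-0.54) were also negative. The largest of the 7 positive values were those of APOA1 (0.29) and GPC3 (0.12). Markers of endothelial, immune and stromal cells (PECAM1, VWF, PTPRC, CD68, COL1A1 and COL3A1) summed to 70.6 to 75.0 CPM with overexpression and 63.4 to 81.5 CPM in controls, mostly PECAM1, while VWF was at 0 in 5 of 6 libraries. Mitochondrial genes took 6.32% to 7.04% of the counts in the overexpression libraries and 9.29%, 6.71% and 6.94% in control libraries 1, 2 and 3.

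Of the 42 members, 41 passed the filter on low counts. DERL3, a paralogue of the derlins DERL1 and DERL2 that form part of the ERAD channel, had 0 counts in every library, which allows a level of up to 0.212 to 0.277 CPM per library (3 counts, counting error only). No member passed an adjusted p of 0.05, either higher (0 of 41, against 0.0266% of all genes tested) or lower (0 of 41, against 0.0133%, or 0.0399% in either direction). At an unadjusted p under 0.05, 3 members were counted (7.32%, against 5.5% of all genes), all 3 of them lower with overexpression (against 3.08% for that direction) and 0 higher (against 2.42%), namely WFS1, CREB3L2 and HERPUD1. DESeq2 called 1 member, WFS1, where it called 0.186% of all genes, and limma on FPKM called 0. The median log2 fold change of the 41 members was 0.0095, with 22 positive and 19 negative values, beside a median of 0.0023 with 7601 positive and 7454 negative values over all 15055 genes.

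The median standard error of the log2 fold change was 0.125 for the members and 0.156 for all genes. For 35 of the 41 members (85.4%) the 95% interval lay within a 1.5-fold change in both directions, as it did for 8734 of all genes tested (58.0%). The remaining 6 were CREB3L2, WFS1, HERPUD1, ERN1, ATF3 and CREB3. The summed level of all members was 14015, 13186 and 13417 CPM in the overexpression libraries and 13224, 13570 and 14661 CPM in the controls. The ranges overlapped, and the set took a mean of 1.35% of the TMM-scaled library size with overexpression and 1.38% in the controls. In a bulk sample fewer cells that express a gene and less RNA per cell cannot be told apart.

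**Figure D1:**
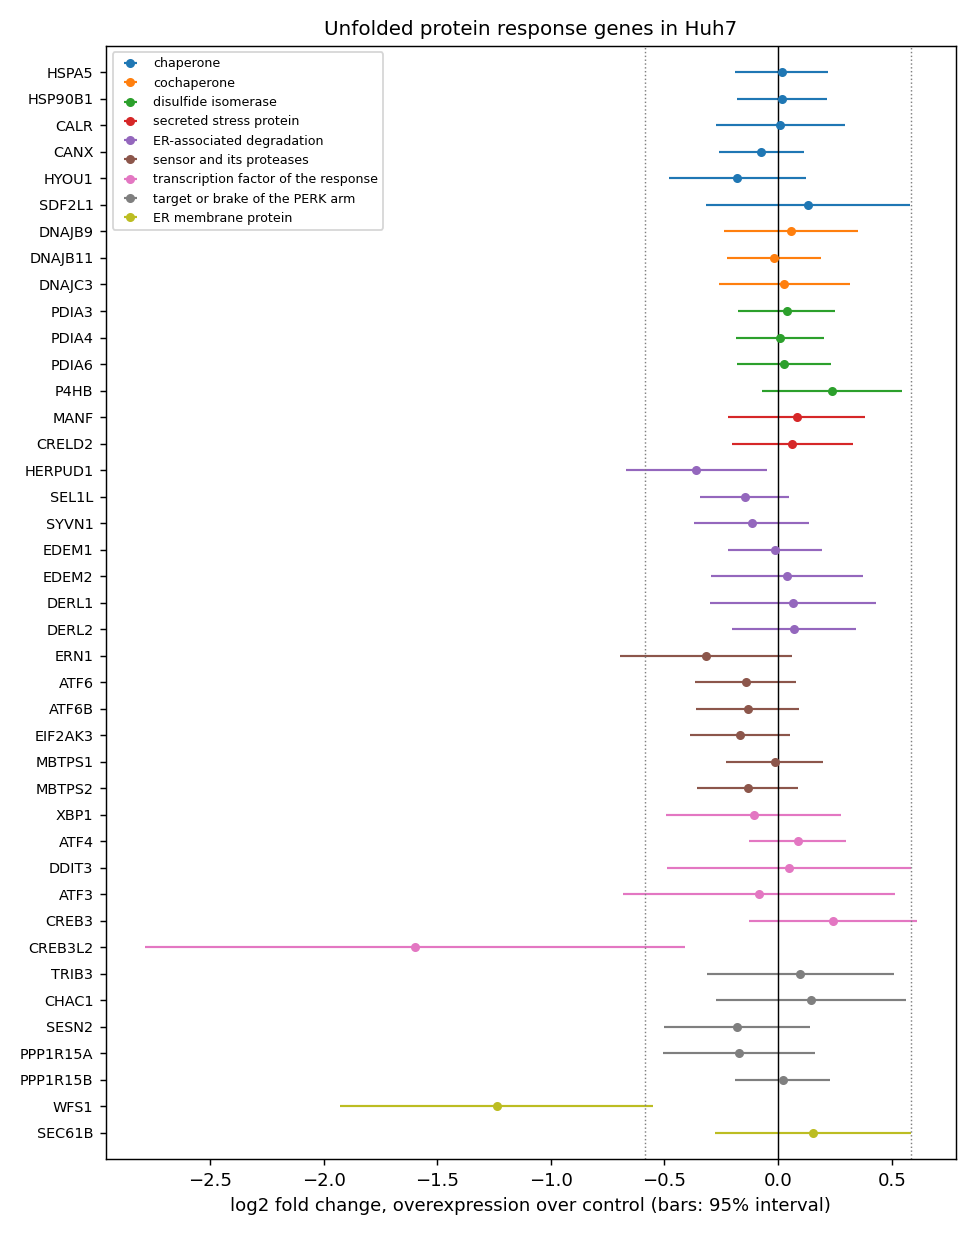
Log2 fold change of each tested member, overexpression over control, with its 95% interval (bars) and coloured by role. The dotted lines mark a 1.5-fold change, and the 35 intervals between them all contain 0, while CREB3L2 (-1.60) and WFS1 (-1.24) lie far to the left.

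Compared per kilobase of merged exons, the 4 most abundant members were ER chaperones. CALR (calreticulin, a lectin chaperone) had a mean of 581 CPM per kilobase with overexpression and 577 in the controls. It was followed by HSPA5 (458 and 453), HSP90B1 (GRP94, the ER member of the HSP90 family; 374 and 369) and CANX (calnexin, the membrane-bound lectin chaperone; 294 and 309). The ranges over the 6 libraries did not overlap between neighbours in this order, at 517 to 680.4 for CALR, 414 to 491 for HSPA5, 343 to 391 for HSP90B1 and 289 to 327 CPM per kilobase for CANX. Among transcription factors ATF4 (231 and 217) and XBP1 (138 and 148) stood well above ATF3 (3.94 and 4.17), and the sensor ERN1 was the lowest of the detected members (2.29 and 2.85).

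**Figure D2:**
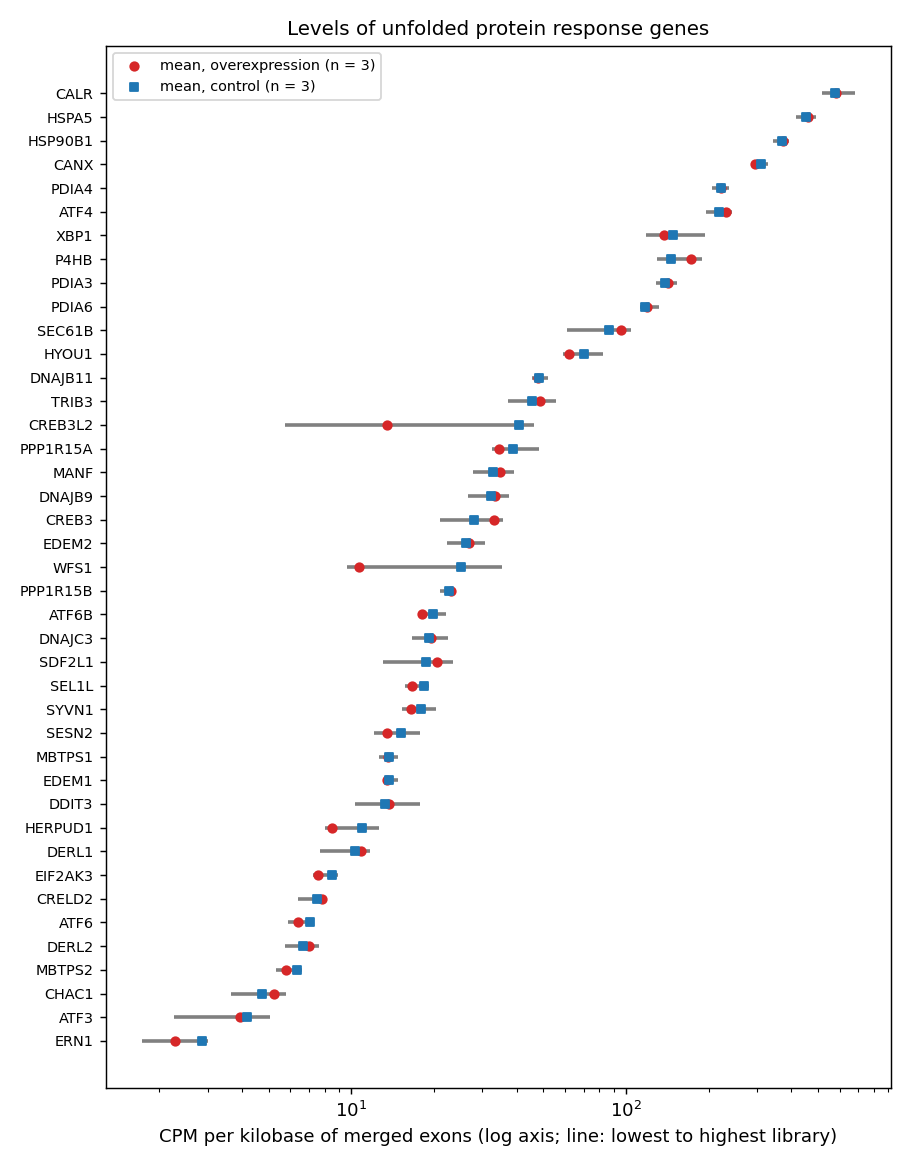
Mean CPM per kilobase of merged exons for the 41 detected members (log axis), with circles for overexpression, squares for control (n = 3 each) and a line from the lowest to the highest of the 6 libraries. Levels ran from about 2.29 for ERN1 to 581 for CALR, and the means of the 2 groups lie far apart only for CREB3L2 and WFS1.

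Some of the members' promoters carry the ER stress response elements through which ATF6 and XBP1 act, and examples are shown as the sequence feature known for this response. The sequences were read from RefSeq (GRCh38.p14) over 250 bases before to 50 after each gene's start, for 39 of the 42 members. The element ERSE was searched on both strands as CCAAT and CCACG with 9 bases of any kind between them, and ERSE-II as ATTGG and CCACG with 1 base between them. The motif is given in capitals, on the strand on which it reads forward.
HSPA5 (ERSE, chr9:125241385-125241414, minus): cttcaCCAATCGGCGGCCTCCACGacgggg
HSP90B1 (ERSE, chr12:103930211-103930240, plus): cctgaCCAATCGGAAGGAGCCACGcttcgg
CALR (ERSE, chr19:12938379-12938408, minus): caccgaCCAATGATGGTCGACCACGcgtgg
XBP1 (ERSE, chr22:28800597-28800626, minus): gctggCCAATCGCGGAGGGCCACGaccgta
HERPUD1 (ERSE-II, chr16:56932016-56932045, plus): cggacgccgATTGGGCCACGttgggagagt
HYOU1 (ERSE-II, chr11:119057264-119057293, plus): gcgcgtactcATTGGACCACGtcccaggcc
SDF2L1 (ERSE-II, chr22:21642105-21642134, minus): gagggttttgATTGGTCCACGcttccgagg

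ERSE was found in 7 of the 39 members (17.9%; CALR, CANX, CRELD2, HSP90B1, HSPA5, PDIA6 and XBP1) and in 25 of all 27305 genes with a window (0.0916%). ERSE-II was found in 3 members (7.69%; HERPUD1, HYOU1 and SDF2L1) and in 19 of all genes with a window (0.0696%). Among 80 other genes of the pathway with a promoter window, only ERO1B held an ERSE and none an ERSE-II. UPRE (TGACGTGG), a further stress-response motif searched in the same windows, was found in 1 member (2.56%; HYOU1). It was found in 8 of the 80 other genes and in 0.927% of all genes with a window. The 10 members with either element had a median log2 fold change of 0.013, with 6 positive and 4 negative values. The 29 other tested members with a window had a median of -0.015, with 14 positive and 15 negative values. The ATF4-type element TTGCATCA was present in 0.866% of windows and in the members CHAC1, HERPUD1 and PPP1R15B, and the CRE palindrome TGACGTCA in 1.85% of windows and in CREB3L2 and PPP1R15A. These matches are letters in a window and carry no measurement of binding.

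The ER chaperones were close to their control levels. HSPA5, the chaperone that holds the sensors inactive, had 1828, 1777 and 1763 CPM with overexpression and 1619.5, 1771 and 1920.2 CPM in the controls. The overexpression libraries lay inside the range of the controls, and the log2 fold change was 0.02 with an SE of 0.09, a 95% interval of -0.19 to 0.22 and an adjusted p of 0.978 by edgeR. HSP90B1 had 1821, 1694 and 1751 CPM against 1755, 1611 and 1838 CPM (log2 fold change 0.02, 95% interval -0.18 to 0.21). CALR had 1847, 1445 and 1437 CPM against 1629, 1404 and 1665 CPM, so that overexpression library 1 was the highest and control library 2 the lowest of the 6 (log2 fold change 0.01, 95% interval -0.27 to 0.29). CANX (-0.07) and HYOU1, a large HSP70-like chaperone of the ER (-0.18), had negative values. SDF2L1, a component of an HSP40 chaperone complex of the ER, had 23.6, 22.4 and 21.6 CPM against 14.3, 21.7 and 25.7 CPM. Its controls spread around the overexpression libraries, and its log2 fold change was 0.13 with a 95% interval of -0.32 to 0.58. The 6 chaperones had 4 positive and 2 negative values and a median of 0.013, and none passed the test.

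The cochaperones, isomerases and secreted proteins were mostly slightly positive, and none passed the test. The J-domain cochaperones DNAJB9 (0.06), DNAJB11 (-0.02) and DNAJC3 (0.03), which stimulate the ATPase of BiP, had a median of 0.027. All 4 protein disulfide isomerases, which form and rearrange disulfide bonds, were positive: PDIA3 (0.04), PDIA4 (0.01), PDIA6 (0.03) and P4HB (0.24). Without overexpression library 1, PDIA3 (-0.020), PDIA4 (-0.010) and PDIA6 (-0.049) were negative. P4HB (ENSG00000185624), also a subunit of prolyl 4-hydroxylase, had 916, 822 and 999 CPM with overexpression against 707, 686 and 927 CPM. Control library 3 lay within the overexpression range, and the log2 fold change had an SE of 0.13, a 95% interval of -0.07 to 0.54 and an adjusted p of 0.797 by edgeR. The secreted stress proteins MANF and CRELD2 had log2 fold changes of 0.08 and 0.06. PDIA3 may share reads with its processed pseudogene PDIA3P1, which held 8977 counts over the 6 libraries against 44778 for PDIA3, and CRELD2 overlaps ALG12 on the opposite strand (3134 counts against 2992).

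HERPUD1 had the largest difference among the ERAD genes. It encodes an ER membrane protein of the ubiquitin ligase complex around SYVN1 (HRD1) and SEL1L, lies at chr16:56932048-56944863 (GRCh38, plus strand, ENSG00000051108), and had 48.5, 41.3 and 41.8 CPM with overexpression against 47.3, 65.1 and 56.4 CPM in the controls. The groups overlapped through overexpression library 1 and control library 1. The means were 43.9 ± 4.02 and 56.3 ± 8.86 CPM (SD, n = 3), and the log2 fold change was -0.36 (SE 0.14, 95% interval -0.67 to -0.05), with an unadjusted p of 0.0281 and an adjusted p of 0.797 in edgeR. Without a single library the value ran from -0.47 to -0.24. SEL1L, the adaptor of the complex, had 149, 158 and 168 CPM against 183, 169.9 and 174 CPM, with overexpression library 3 just below control library 2 (log2 fold change -0.15, adjusted p 0.797 by edgeR). The ligase SYVN1 was at -0.12, and it overlaps FAU on the same strand (9840 counts against 7074) and MRPL49 on the opposite strand (3957 counts). The mannosidase-like proteins EDEM1 (-0.01) and EDEM2 (0.04) and the derlins DERL1 (0.07) and DERL2 (0.07) lay close to 0. The 7 tested ERAD genes had 3 positive and 4 negative values and a median of -0.015.

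The sensors and the proteases that cut ATF6 had negative values in 6 of 6 genes, with a median log2 fold change of -0.14, and none passed the test. Their merged exons measured 10864 bases for ERN1, 10238 for MBTPS1, 8927 for MBTPS2, 7890 for ATF6, 5434 for EIF2AK3 and 3629 for ATF6B. The median deviation of the 6 genes from the gene mean (log2 CPM) was -0.15, -0.045 and 0.018 in the overexpression libraries. In the controls it was 0.098, 0.0046 and 0.12. Deviations of overexpression library 1 and control library 1 varied with gene length, as described below, and the part of length here was not tested. ERN1 (IRE1, ENSG00000178607) had 18.8, 26.8 and 28.9 CPM with overexpression and 32.6, 28.5 and 31.7 CPM in the controls. Overexpression library 1 was the lowest, and library 3 lay above control library 2. The log2 fold change of ERN1 was -0.32 (SE 0.17, 95% interval -0.70 to 0.06, adjusted p 0.797 by edgeR), and it was -0.15 without overexpression library 1. EIF2AK3 (PERK) had 42.1, 41.5 and 39.5 CPM against 46.1, 43.5 and 48.7 CPM, which did not overlap (log2 fold change -0.17, 95% interval -0.39 to 0.05). ATF6 had 46.5, 51.0 and 53.6 CPM against 57.1, 52.9 and 56.8 CPM, with overexpression library 3 above control library 2 (log2 fold change -0.14, 95% interval -0.36 to 0.08). Its relative ATF6B had 66.5, 65.5 and 65.2 CPM against 80.5, 69.2 and 66.9 CPM, which did not overlap (log2 fold change -0.13). The proteases MBTPS1 and MBTPS2 were at -0.02 and -0.13, and MBTPS1 became positive with upper-quartile scaling (0.00042) and with limma on FPKM (0.0082). The summed level of these 6 genes was 350.3, 385 and 383 CPM with overexpression against 403, 389 and 414 CPM in the controls. In all, 5 members did not overlap between the groups (12.2%, against 12.9% of all genes), all 5 lower with overexpression (against 6.5% for that direction) and 0 higher (against 6.4%): CREB3L2, WFS1, SEL1L, EIF2AK3 and ATF6B. SEL1L and ATF6B were named here after their values had been seen.

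**Figure D3:**
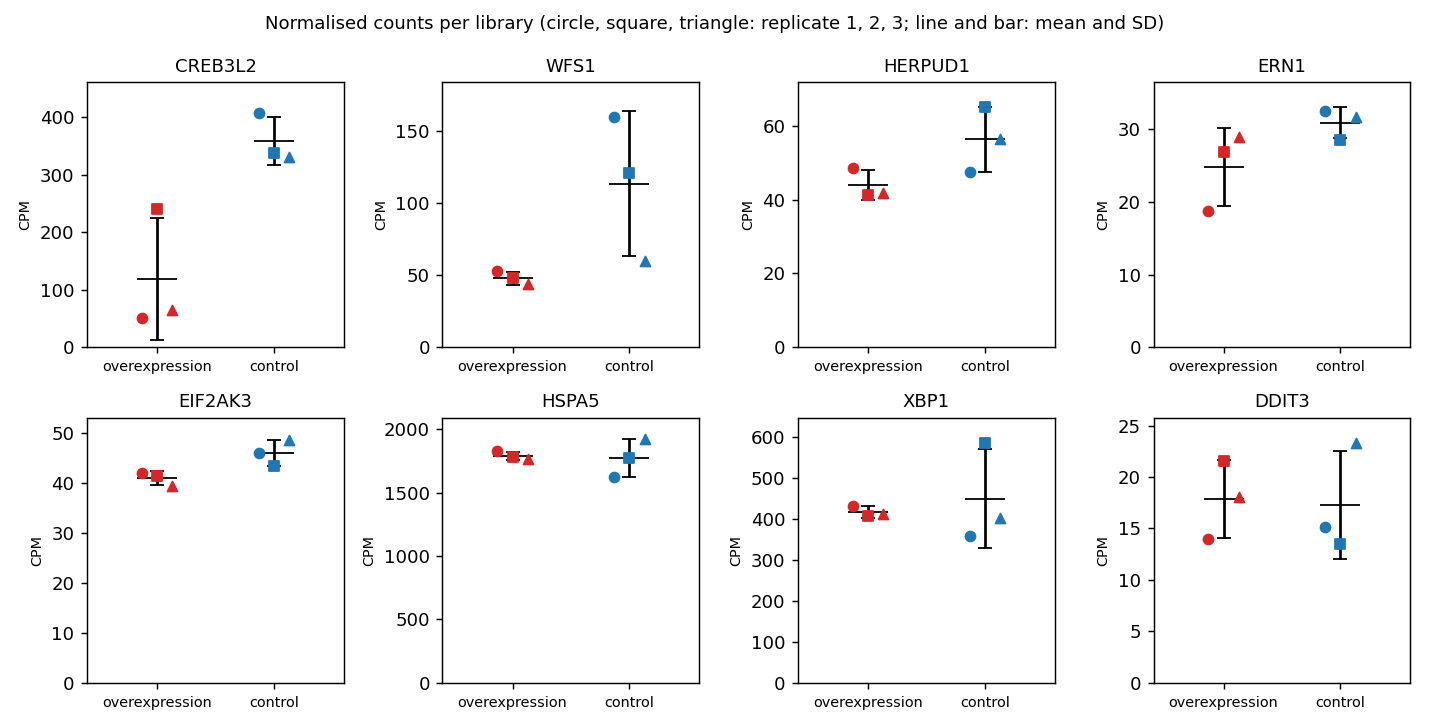
CPM of 8 members in each library, with circles, squares and triangles for replicates 1, 2 and 3 and lines for the mean and SD (n = 3 per group, axes from 0). CREB3L2 and WFS1 show separated groups with a wide spread inside one of them, while the 3 overexpression libraries of HSPA5 and XBP1 lie within the range of the controls.

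CREB3L2 had the largest fold change of the set. It encodes an ER-anchored bZIP factor that, like ATF6, is released by proteolysis in the Golgi, and it lies at chr7:137874979-138002067 (GRCh38, minus strand, ENSG00000182158). Its level was 50.4, 239.9 and 64.2 CPM with overexpression and 406, 337 and 331 CPM in the controls. The groups did not overlap, but overexpression library 2 stood nearer to the controls than to its own group, whose highest library was 4.76 times its lowest. The means were 118 ± 106 and 358 ± 41.7 CPM (SD, n = 3), 3.03-fold lower with overexpression. The log2 fold change was -1.60 (SE 0.52, 95% interval -2.79 to -0.41), with an unadjusted p of 0.0143 and an adjusted p of 0.797 in edgeR. Without overexpression library 2 the log2 fold change was -2.65 and the adjusted p 0.00191, and over the other omissions of a single library the weakest value was -1.23. With the replicate number as a block it was -1.97.

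WFS1 (wolframin), an ER membrane protein whose loss causes Wolfram syndrome, was the other member far from 0. It lies at chr4:6269849-6303265 (GRCh38, plus strand, ENSG00000109501) and had 52.6, 47.9 and 43.6 CPM with overexpression and 159.7, 121 and 59.7 CPM in the controls. The 3 overexpression libraries were close together and below every control, while control library 3 lay near them and the controls spread over 2.67-fold. The means were 48.0 ± 4.49 and 113 ± 50.4 CPM (SD, n = 3), 2.36-fold lower with overexpression. The log2 fold change was -1.24 (SE 0.30, 95% interval -1.93 to -0.55), with an unadjusted p of 0.0031 and an adjusted p of 0.797 in edgeR. DESeq2 gave the same log2 fold change with an adjusted p of 0.00424, and without control library 3 edgeR gave -1.54 with an adjusted p of 0.0434. Without control library 1 the log2 fold change was -0.91, the weakest over the omissions of a single library. The second ER membrane protein of the set, SEC61B of the protein-conducting channel, had 99.1, 119.7 and 124 CPM against 72.4, 116 and 119 CPM, with control library 1 far below the rest (log2 fold change 0.15, 95% interval -0.28 to 0.58).

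The factors that carry the signal to the nucleus had values on both sides of 0. XBP1, the target of IRE1, had 432, 406 and 411 CPM with overexpression against 358, 585 and 402 CPM. Control library 2 was well above the other 5 libraries, the log2 fold change was -0.11 with a 95% interval of -0.49 to 0.28, and without that library it was 0.13. ATF4 had 611, 561 and 568 CPM against 491, 580.4 and 567 CPM, a log2 fold change of 0.09 (95% interval -0.13 to 0.30). Its control library 1 was the lowest of the 6. DDIT3 (CHOP), the pro-apoptotic factor induced through ATF4, had 14.02, 21.6 and 18.1 CPM against 15.1, 13.5 and 23.3 CPM, with the overexpression libraries inside the range of the controls (0.05, 95% interval -0.49 to 0.58). DDIT3 lies opposite the methionyl-tRNA synthetase gene MARS, which held 19613 counts against 1329, and the handling of strand is not known, so its reads may not be separable. ATF3, an immediate stress factor, had 9.13, 18.2 and 20.4 CPM against 17.2, 17.0 and 16.4 CPM. Overexpression library 1 was far below the other 5, and the log2 fold change of ATF3 was -0.08 with all libraries and 0.20 without that library. CREB3, an ER-bound relative of CREB3L2, had 59.3, 67.9 and 61.6 CPM against 40.1, 56.2 and 63.2 CPM (0.24, 95% interval -0.13 to 0.61, adjusted p 0.797 by edgeR). CREB3 overlaps TLN1 (31277 counts against 4414) and GBA2 (9868 counts) on the opposite strand, so its reads may not be separable either. The 6 transcription factors had 3 positive and 3 negative values and a median of -0.019.

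Targets and brakes of the PERK arm were likewise spread around 0. TRIB3, a pseudokinase induced by ATF4 and CHOP, had 183, 128 and 188 CPM against 138, 190.4 and 139 CPM, with a high and a low level in both groups (log2 fold change 0.10, 95% interval -0.31 to 0.51). CHAC1, which degrades glutathione, had 10.8, 10.9 and 10.6 CPM against 7.48, 9.88 and 11.8 CPM, close together with overexpression and spread around that level in the controls (0.14, 95% interval -0.28 to 0.56). PPP1R15A (GADD34), the phosphatase subunit that reverses eIF2 alpha phosphorylation, had 105, 114 and 100.1 CPM against 102, 108 and 149 CPM. Control library 3 alone was high, and the value of -0.17 (95% interval -0.51 to 0.16) became 0.015 without it. Its constitutive relative PPP1R15B was at 0.02 and the sestrin SESN2 at -0.18. The 5 genes had 3 positive and 2 negative values and a median of 0.021.

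A further 97 genes of folding, ERAD, translocation, the integrated stress response and the death and kinase branches were listed from knowledge of the pathway, and 94 of them were tested. None was called by edgeR (0 of 94, against 0.0399% of all genes), DESeq2 or limma, 44 were positive and 50 negative, and the median was -0.0073. Folding and oxidation genes had a median of 0.041 (13 of 22 positive), other ERAD genes -0.0042 (8 of 18) and translocation and glycosylation genes -0.0034 (9 of 19). Genes of the integrated stress response, the amino acid and translation programme shared with ATF4, had a median of -0.043 (12 of 30 positive), and the death and kinase genes -0.17 (2 of 5). CEBPB, a bZIP partner of ATF4 and CHOP, was the only gene of the 94 at an unadjusted p under 0.05 (1.06%, against 5.5% of all genes). It had 56.7, 47.2 and 51.3 CPM with overexpression against 31.1, 44.5 and 42.1 CPM, which did not overlap (log2 fold change 0.40, SE 0.15, adjusted p 0.797 by edgeR).

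Control libraries 1 and 3 stood at opposite ends in these genes. Control library 1 was the lowest of the 6 in 17 of 41 members (41.5%, against 26.5% of all genes), and control library 3 was the highest in 20 (48.8%, against 16.5%) and the lowest in none (against 16.4%). Their median deviations from the gene mean were -0.10 and 0.12 on the log2 scale, where those of all genes were 0.0085 and 0.0071. For the chaperones alone the median deviations were -0.086 and 0.12, and for the cochaperones -0.22 and 0.20. Control library 1 was also the library with the highest mitochondrial share, given above, whose part in these values was not tested.

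**Figure D4:**
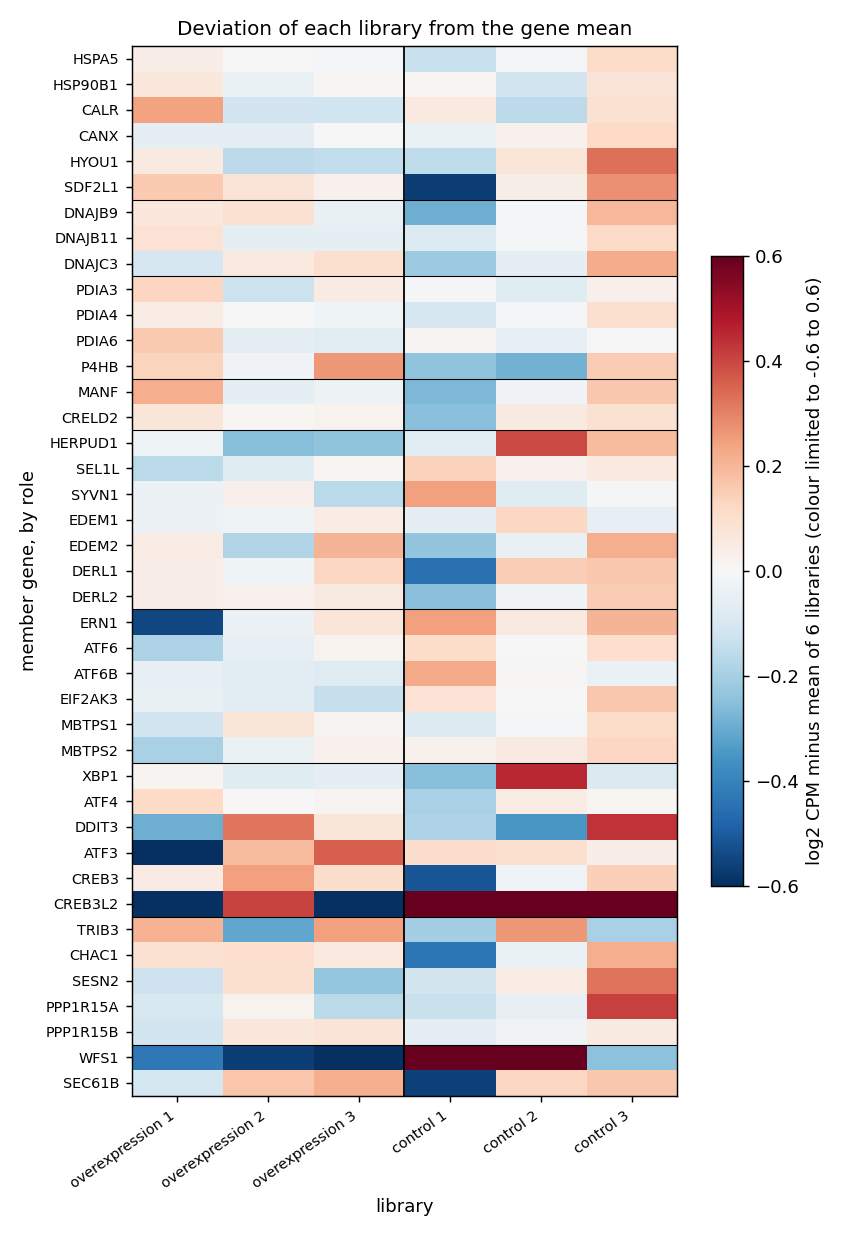
Log2 CPM of each member in each library minus the mean of the 6 libraries, with genes ordered by role and colour limited to 0.6 in either direction. Control library 1 is blue in most folding genes and control library 3 red, whereas CREB3L2 and WFS1 are separated by group except for overexpression library 2 in CREB3L2 and control library 3 in WFS1, which carry the colour of the other group.

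The deviations of control library 1 and of overexpression library 1 were related to gene length, in opposite directions. Control library 1 was the lowest library in 11 of the 20 members with merged exons shorter than 4513 bases. Its median deviation was -0.19 in these, against -0.058 in the 21 longer members. In overexpression library 1 the median deviation was 0.046 in the shorter members and -0.046 in the longer. Across the 41 members Spearman's rho between deviation and length was 0.53 for control library 1 and -0.43 for overexpression library 1. Over 14979 genes the values were 0.25 and -0.34. These correlations run across genes of the same libraries, which share depth and preparation, and are given as a description.

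**Figure D5:**
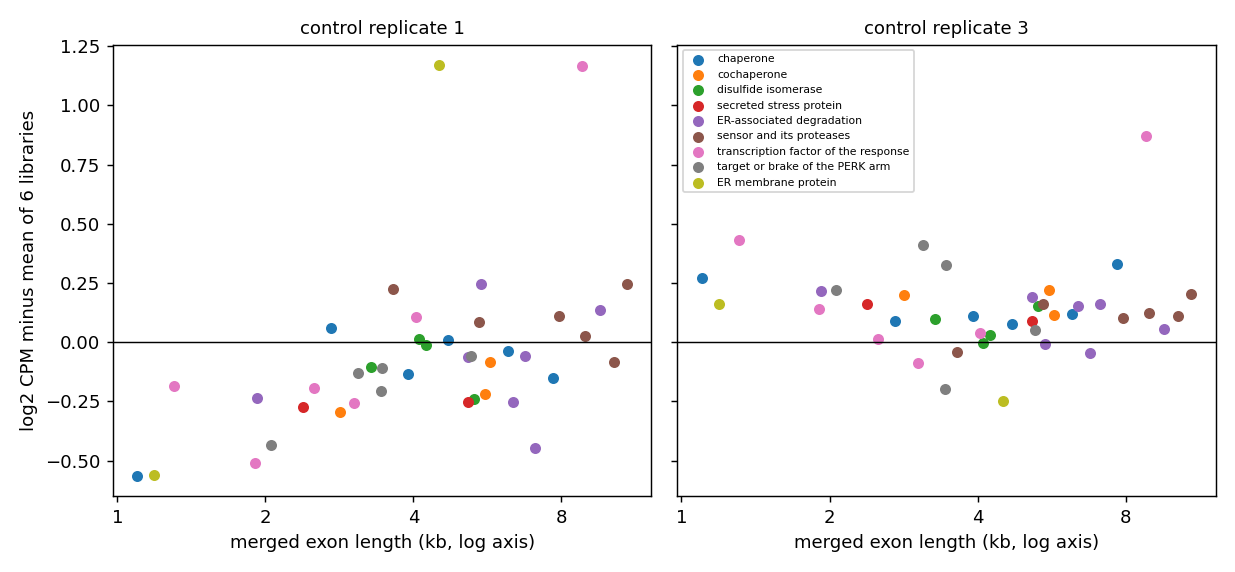
Deviation of control replicate 1 (left) and control replicate 3 (right) from the mean of the 6 libraries in log2 CPM, plotted against merged exon length in kilobases (log axis) with a point per member, coloured by role. Short members lie lowest in control replicate 1, and most members lie above 0 in control replicate 3.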

How the data were processed

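RNA sequencing of total RNA from 6 Huh7 libraries was analysed, 3 that overexpressed hsa_circ_0098181 and 3 controls, grouped by their titles. For each gene, the authors deposited raw whole-number counts beside FPKM values in 6 libraries. Per the submitters' processing notes, reads were aligned to hg38 with TopHat2 2.0.9. The counting tool, the annotation release and the use of strand are not given in the sources used here. The study's methods name Student's test for its data in general and no test of counts, so a count test was used.

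The quasi-likelihood test of edgeR 4.0.16 (R 4.3.3) compared the groups, without covariates and two-sided, on TMM-scaled counts of the 15055 genes that filterByExpr kept (minimum count 10), with Benjamini-Hochberg adjustment over them. The biological coefficient of variation was 16.1%. Standard errors came from the F statistic, TMM library sizes entered CPM, and merged exon lengths came from GENCODE 29. The scripts were tested on simulated data.

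The members and all lists were chosen with earlier results of these data known. Library values were given for 15 fixed members, for members at an unadjusted p under 0.05 and for the 4 largest log2 fold changes in each direction. The 1.5-fold bound on intervals was a descriptive choice. Alternatives were RLE and upper-quartile scaling, DESeq2 1.42.0, no filter beyond 1 count, a mean of at least 50 counts, limma 3.58.1 with trend on the deposited FPKM as log2(FPKM + 1), where 3 or more libraries reached 1 FPKM, the replicate number as a block and the omission of each library. Adding pseudogene counts to PDIA3, XBP1 and ATF4 was chosen after seeing the data. Exact permutation of 3 against 3 libraries cannot go below a two-sided p of 0.1 and was not used. Library pairs within a group differed by 10.1 to 20.9 in chi-square per degree of freedom, so none was a copy of another of its group. Pairs across the groups were not compared in this way.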

Additional observations from a re-analysis of the deposited data

How the results depend on the processing

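The count of members called higher was 0 under every alternative run. The count called lower was 0 except for 1 member with DESeq2 (WFS1), without overexpression replicate 2 (CREB3L2) and without control replicate 3 (WFS1), so that over the omissions of a single library it ran from 0 to 1. The cause of the difference between DESeq2 and edgeR was not tested. The median log2 fold change of the members ran from -0.058 to 0.040 when single libraries were left out, the lowest without control library 1 and the highest without control library 3. SOX5 was called throughout, at 5.32 to 5.89 under the other settings and 5.77 to 6.003 without a library.

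Of 536 member values under alternatives, 490 kept their direction and side of the threshold, 3 passed it and 43 changed sign, in 24 members. With upper-quartile scaling EDEM1 was 0.00070 and MBTPS1 0.00042, and with limma on FPKM DNAJB11 was 0.0082, EDEM1 0.011 and MBTPS1 0.0082. When single libraries were left out, values that changed sign ran from -0.043 to 0.079 for HSPA5, -0.034 to 0.061 for HSP90B1, -0.12 to 0.073 for CALR, -0.070 to 0.32 for SDF2L1, -0.060 to 0.18 for DNAJB9, -0.067 to 0.040 for DNAJB11, -0.066 to 0.16 for DNAJC3, -0.020 to 0.11 for PDIA3, -0.036 to 0.064 for PDIA4 and -0.049 to 0.069 for PDIA6. They ran from -0.022 to 0.19 for MANF, -0.036 to 0.13 for CRELD2, -0.046 to 0.047 for EDEM1, -0.060 to 0.17 for EDEM2, -0.11 to 0.17 for DERL1, -0.029 to 0.17 for DERL2, -0.059 to 0.038 for MBTPS1, -0.24 to 0.13 for XBP1 and -0.11 to 0.32 for DDIT3. The remaining ranges were -0.30 to 0.20 for ATF3, -0.0099 to 0.31 for CHAC1, -0.27 to 0.015 for PPP1R15A, -0.013 to 0.080 for PPP1R15B and -0.043 to 0.28 for SEC61B.

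The replicate numbers did not pair the libraries, with correlations of deviations of -0.029, -0.012 and -0.031. The replicate block left 0 members called in either direction, with a median of 0.012.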

Other observations

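The following genes were named after their values had been seen, and no test of a shared pattern was made. In CREB3L2 overexpression library 2 lay nearest to the controls, and a similar order was seen in 2 other genes of the pathway. BCL2L11 (BIM, a pro-apoptotic BCL2-family protein) had 6.65, 34.5 and 5.17 CPM with overexpression against 32.3, 20.3 and 33.5 CPM in the controls. EDEM3, a mannosidase of ER-associated degradation, had 81.1, 123 and 84.8 CPM against 115, 138 and 114 CPM. TXNDC5, a disulfide isomerase, had 109, 123 and 378 CPM against 308, 366 and 114 CPM, so that overexpression library 3 and control library 3 each stood with the other group.

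Within a group, the highest library was at least 2 times the lowest in 3 of 41 members with a mean of at least 10 CPM (7.32%), namely CREB3L2, WFS1 and ATF3, and in 499 of 9953 such genes in all (5.01%).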
